A study of Mus musculus with 12 samples.

Results

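The mRNAs described here are 10 of the mRNAs that mouse mitochondria transcribe from their own circular genome: COX1, COX2 and COX3, CYTB, ATP6 and ATP8, and ND1, ND4, ND5 and ND6. They were chosen by name, as respiratory genes of the mitochondrial genome, and are 10 of the 27179 genes with values in the study. All 10 were found and all 10 were expressed well above the level required for testing. The libraries came from whole, flash-frozen kidneys of 12 mice of mixed strain background according to the labels, 8 to 12 weeks old, with 3 mice in each of 4 groups. Wild-type mice and {Gamma}GT1-Cre;Fan1-/- mice, called FAN1KO below, received weekly intraperitoneal injections of saline or of cisplatin at 2 mg/kg for 5 weeks. Cisplatin is a platinum drug that crosslinks DNA and injures kidney tubules, and FAN1 is a nuclease that takes part in the repair of such crosslinks. The Cre recombinase of the FAN1KO mice is driven in proximal tubule cells, whereas the RNA came from every cell of the kidney. Values are TPM (transcript abundances, made from read counts divided by transcript length and scaled to the same total of 1000000 in each library). Levels of different genes can thus be compared per length, with less certainty for short or overlapping genes.

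The mitochondrial genome codes for a small set of hydrophobic subunits at the core of the respiratory chain, while all other subunits are encoded in the nucleus and imported. The genome is transcribed as long RNAs from both strands, which are cut, mostly at the tRNAs that lie between the genes, into mRNAs, rRNAs and tRNAs. Proximal tubule cells are packed with mitochondria, because reabsorption of salt and solutes is paid for with ATP. Complex I takes electrons from NADH, complex III passes them to cytochrome c, complex IV hands them to oxygen, and complex V, the ATP synthase, uses the resulting proton gradient to make ATP.

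Of the 10 mRNAs, 9 are encoded on the plus strand and ND6 alone on the minus strand of the mitochondrial genome (build GRCm38, RefSeq annotation). All are protein-coding and lack introns. In map order they are ND1 (chrM:2751-3707), COX1 (chrM:5328-6872), COX2 (chrM:7013-7696), ATP8 (chrM:7766-7969), ATP6 (chrM:7927-8607), COX3 (chrM:8607-9390), ND4 (chrM:10167-11544), ND5 (chrM:11742-13565), ND6 (chrM:13552-14070) and CYTB (chrM:14145-15288). The table held 15 rows of the mitochondrial genome, the 13 mRNAs and both rRNAs, and none of the 22 annotated tRNA genes. Neighbouring genes share bases in places, and the longest overlaps are shown because reads there cannot be given to either gene with certainty. ATP6 and COX3 also share 1 base, and ND4 shares 7 with its neighbour ND4L. ATP8 and ATP6 share 43 bases in different reading frames, out of 204 in the short ATP8, and they are carried on a shared mRNA. They are counted separately among the 10 mRNAs here, by coding region. In the lines below, capitals mark the shared bases of the whole ATP8 coding region and of the start of ATP6 (chrM:7927-7986), as given by GENCODE for the plus strand.

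ATP8: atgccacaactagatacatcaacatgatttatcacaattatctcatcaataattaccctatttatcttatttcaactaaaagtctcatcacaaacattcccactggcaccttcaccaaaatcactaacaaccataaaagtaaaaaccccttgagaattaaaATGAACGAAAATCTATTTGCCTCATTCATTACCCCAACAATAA

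ATP6: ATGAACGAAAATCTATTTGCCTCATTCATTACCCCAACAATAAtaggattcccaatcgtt

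The last 40 bases of ND5 (chrM:13526-13565, plus strand) and of ND6 (chrM:13552-13591, minus strand) meet end to end, and capitals mark the 14 bases where each gene lies opposite the other. Whether the counting used the strand of the reads is not given in the sources used here, so reads in this overlap could count for either gene. If strand was ignored, plus-strand reads along the whole of ND6 would also count as ND6.

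ND5: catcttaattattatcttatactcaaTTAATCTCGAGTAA

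ND6: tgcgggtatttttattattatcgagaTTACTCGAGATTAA

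Of the coding regions, 3 are not whole numbers of codons. COX3 (chrM:9361-9390), ND4 (chrM:11515-11544) and CYTB (chrM:15259-15288) stop after a lone T, in capitals below, and their stop codons are completed by the poly(A) tail. The last 30 bases of COX1 (chrM:6843-6872), which carries its whole stop codon in capitals, are shown for comparison.

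COX3: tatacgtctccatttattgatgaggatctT

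ND4: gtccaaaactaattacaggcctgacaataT

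CYTB: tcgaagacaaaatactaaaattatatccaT

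COX1: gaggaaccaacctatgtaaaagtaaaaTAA

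The whole series was checked for depth, sex and labels. Reads assigned to genes, worked back from the TPM and the transcript lengths, numbered 37200327 to 82944994 per library. The 10 mRNAs rested on 4590 reads at the fewest (ATP8) and 2692350 at the most (COX1), so counting error was small beside the spread between mice. Fan1 TPM ran from 1.17 to 3.80 with the genotypes overlapping, so it did not check the labels. RNA of Y-linked genes was present in 1 library per group, namely replicate 3 of the FAN1KO cisplatin and wild-type saline groups and replicate 1 of the other two. Kidney identity was clear, with proximal tubule markers summing to 2537 to 9610 TPM and brown fat and muscle markers near 0.

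In saline-treated wild-type kidneys COX1, the catalytic subunit of complex IV, was the most abundant of the 10, at 43605 ± 7953 TPM (SD, n = 3). ND1, a membrane subunit of complex I, followed at 24302 ± 1926 TPM, then CYTB, the only mitochondrially encoded subunit of complex III, at 23876 ± 2610 TPM. COX2, which holds a copper site that receives electrons from cytochrome c, stood at 22325 ± 1605 TPM and COX3 at 21986 ± 1832 TPM. The values of ND1, CYTB, COX2 and COX3 overlapped, so their order was within the spread between mice. ATP6, part of the proton channel of the ATP synthase, followed at 16888 ± 2143 TPM without overlap with these 4. Below it came ND4, a proton-pumping subunit of complex I, at 12722 ± 1843 TPM and ND6, the only mRNA of the minus strand, at 9822 ± 356 TPM. ND5, another proton-pumping subunit of complex I, had 5487 ± 524 TPM and ATP8, a small subunit of the ATP synthase, 2390 ± 576 TPM. From ATP6 downward no neighbours in this order overlapped. The place of ATP8 is uncertain, however. It had 14.5 ± 4.84 TPM per 100 TPM of ATP6 (SD, n = 3), although both are carried on a shared mRNA.

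Together the 10 mRNAs made up 16.3 to 19.9% of all TPM under saline and less in FAN1KO kidneys after cisplatin. Their share was 19.9, 18.8 and 16.3% in wild-type and 16.8, 18.3 and 18.5% in FAN1KO kidneys given saline. After cisplatin it was 18.5, 15.9 and 15.8% in wild-type kidneys but 8.70, 11.9 and 14.3% in FAN1KO kidneys. All 3 FAN1KO cisplatin kidneys lay below the other 9 libraries, which overlapped among themselves. The mean share was 11.6 ± 2.83% in FAN1KO cisplatin and 16.75 ± 1.53% in wild-type cisplatin kidneys (SD, n = 3 each), a difference of −5.11 percentage points against a pooled SD of 2.27. In FAN1KO kidneys cisplatin and saline differed by −6.25 points, with a pooled SD of 2.11, and in wild-type kidneys by −1.59 points, with a pooled SD of 1.71. FAN1KO and wild-type kidneys under saline differed by −0.45 points, with a pooled SD of 1.49. Counted as reads rather than per length, the 10 mRNAs took 4.95, 7.01 and 8.60% of the reads in FAN1KO cisplatin and 11.5, 9.54 and 9.52% in wild-type cisplatin kidneys. By complex, the mean share of the complex I mRNAs was 4.82% in wild-type and 3.36% in FAN1KO cisplatin kidneys, and that of the COX mRNAs 8.20 and 5.65%, both without overlap, while that of ATP6 with ATP8 was 1.67 and 1.23%, with overlap. The comparisons of the 4 groups share libraries with one another and are not independent.

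**Figure D1:**
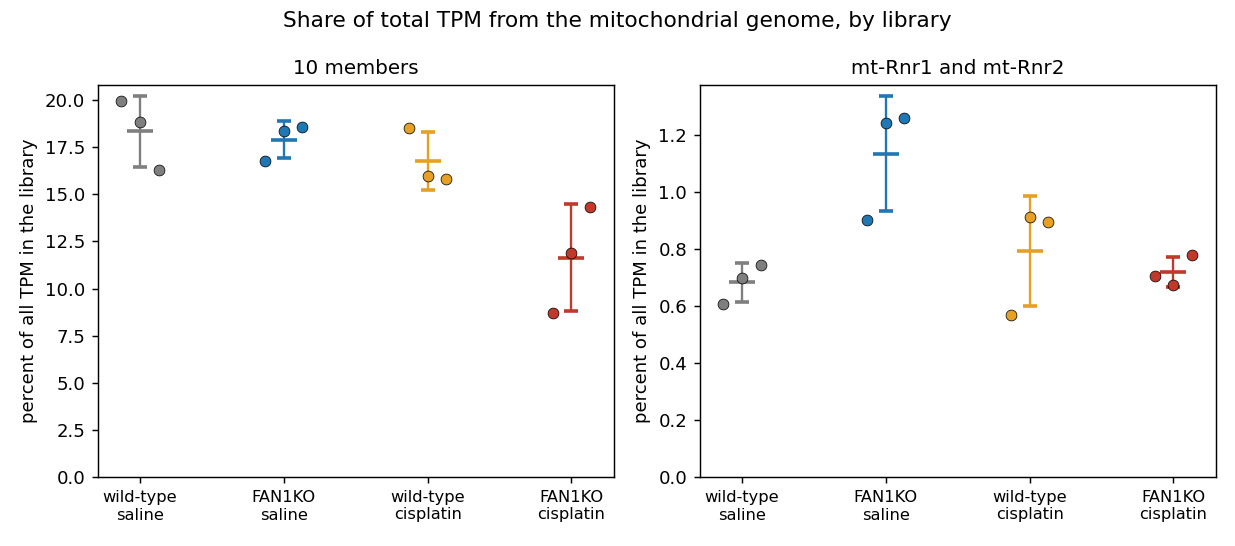
The percent of total TPM (vertical axis) from the 10 mRNAs (left panel) and from the 2 mitochondrial rRNAs (right panel) is plotted for each library (points) with the mean and SD of each group of 3 (bars). In the left panel the FAN1KO cisplatin kidneys, at 8.70 to 14.3%, sit below all other libraries, and in the right panel the FAN1KO saline kidneys, at 0.903 to 1.26%, overlap with 1 wild-type cisplatin library only.

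Under cisplatin all 10 mRNAs had a lower mean in FAN1KO than in wild-type kidneys, with differences of −37.2 to −23.2%, but none passed the test. ND4 differed most. Its TPM was 12903, 10747 and 10404 in wild-type and 5075, 6976 and 9321 in FAN1KO cisplatin kidneys, without overlap, and the log2 fold change was −0.71 ± 0.25 (SE), with an adjusted p of 0.0594 by limma with Benjamini–Hochberg adjustment over 14972 genes. COX3 had 21521, 17909 and 17238 TPM in wild-type and 9485, 12424 and 16107 TPM in FAN1KO kidneys, also without overlap (log2 fold change −0.60 ± 0.25). ND1 had 24488, 23128 and 22727 TPM against 12680, 16445 and 19552 TPM. The 3 FAN1KO values of ND1 were spread widely, with a coefficient of variation of 21.2% against 3.94% in the wild-type kidneys, but all lay below the latter. COX1, the most abundant, had 44107, 41198 and 40306 TPM in wild-type and 21858, 29371 and 32773 TPM in FAN1KO kidneys, the widest gap between the groups of the 10 in TPM. CYTB had 23902, 18852 and 19253 TPM against 9945, 13597 and 18495 TPM, and here the highest FAN1KO and the lowest wild-type kidney nearly met.

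COX2 and ND6 were separated as narrowly. The highest FAN1KO kidney had 19999 TPM of COX2 and the lowest wild-type kidney 20047 TPM, and for ND6 the corresponding values were 7375 and 7580 TPM. ATP6, ATP8 and ND5 overlapped between the genotypes. Thus 7 of the 10 were lower in FAN1KO kidneys without overlap, where 8.60% of all genes tested were, while 0 of the 10 were called lower, where 4.37% of all genes were, and 0 higher, where 19.6% were. Unadjusted limma p values lay under 0.05 for 3 of the 10 (ND4, COX3 and ND1), and the adjusted p values ran from 0.0594 to 0.227. The exact permutation test of 3 against 3 kidneys cannot give less than 0.1, the value it gave for each of the 7. The median log2 fold change of the 10 was −0.51 (range −0.71 to −0.39), and that of all genes tested was 0.24.

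FAN1KO cisplatin replicate 3 was the highest of its group for all 10 mRNAs, and wild-type cisplatin replicate 1 the highest of its own. Both are the libraries of their groups with Y-linked RNA. Without FAN1KO cisplatin replicate 3, COX3, CYTB, ND4 and ND5 were called lower, 4 of the 10. Among libraries with Y-linked RNA, 1 against 1, all 10 were lower in the FAN1KO kidney, with differences of −27.8 to −13.5%, and among those without it, 2 against 2, all 10 were lower as well, with differences of −43.0 to −22.3%. With the Y-linked level as a covariate 4 of the 10 were called (ND1, ATP8, COX3 and ND4), and the part of sex in the result was otherwise not tested.

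**Figure D2:**
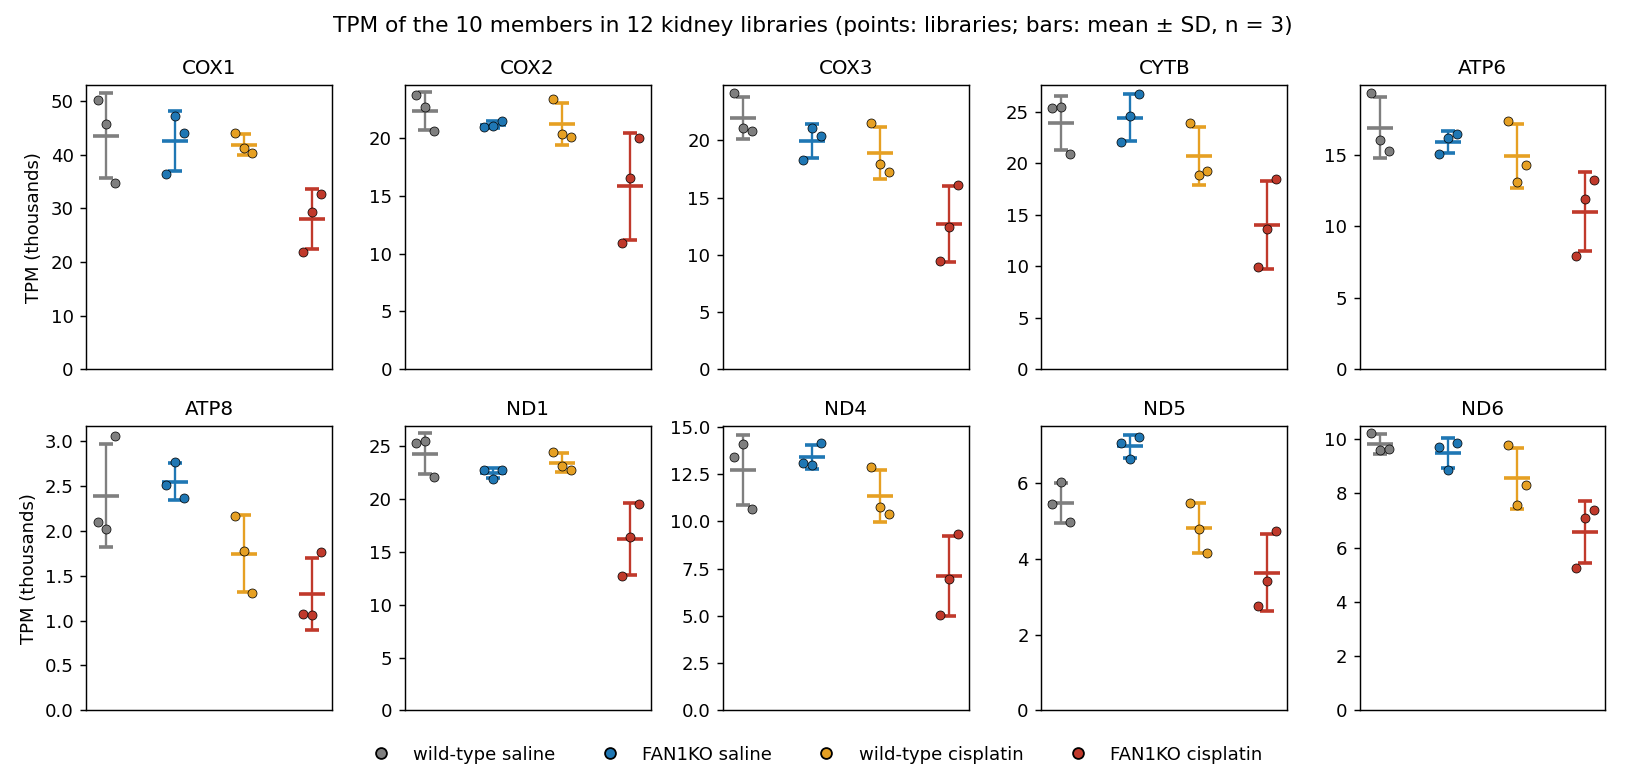
TPM (vertical axes, from 0, in the units marked on them) is plotted for each of the 10 mRNAs in the 12 libraries (points, by group), with the mean and SD of each group of 3 (bars). The red FAN1KO cisplatin points are the lowest group in every panel, and they reach into the wild-type cisplatin values for ATP6, ATP8 and ND5.

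Within FAN1KO kidneys, 5 of the mRNAs fell with cisplatin. All 10 mRNAs were lower after cisplatin than after saline without overlap, where 7.43% of all genes tested were, and 5 of the 10 passed the test, where 4.90% of all genes did in this direction. The count was 9 with the Y-linked covariate, with median-ratio scaling, without the mean-variance trend and with voom on recovered reads, and 1 without the filter on low values. None of the 10 rose, where 34.9% of all genes did. Between the libraries with Y-linked RNA, 1 against 1, all 10 were lower after cisplatin, with differences of −32.9 to −4.44%. Among those without it, 2 against 2, all 10 were lower by more, with differences of −58.4 to −34.1%. The median log2 fold change of the 10 was −0.65 (range −1.01 to −0.46), against 0.37 for all genes tested. ATP8 went from 2503, 2767 and 2358 TPM under saline to 1076, 1058 and 1762 TPM under cisplatin, a log2 fold change of −1.01 ± 0.25 with an adjusted p of 0.0103 (limma). ND5 went from 7067, 6643 and 7219 TPM to 2751, 3408 and 4742 TPM, a log2 fold change of −0.98 ± 0.21 (adjusted p 0.0050, limma). For both, the highest cisplatin kidney stayed well below the lowest saline kidney. ND4, with 13070, 13010 and 14160 TPM under saline, fell by 0.96 on the log2 scale (SE 0.25, adjusted p 0.0118, limma). CYTB, with 22060, 24563 and 26677 TPM under saline, fell by 0.84 (SE 0.28, adjusted p 0.0328, limma), and ND6, with 9730, 8849 and 9871 TPM under saline and 5254, 7087 and 7375 TPM under cisplatin, fell by 0.54 (SE 0.19, adjusted p 0.0449, limma).

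The other 5 mRNAs did not pass the test. COX3 was just outside the threshold, at a log2 fold change of −0.68 ± 0.25 and an adjusted p of 0.0501 (limma), and it went from 18288, 21108 and 20405 TPM to the cisplatin values given above. COX1 (−0.62), ATP6 (−0.56), ND1 (−0.49) and COX2 (−0.46) were further from it. The called mRNAs were thus ND4, ND5 and ND6 of complex I, CYTB of complex III and ATP8 of complex V. The uncalled ones were ND1, ATP6 and the 3 of complex IV. As ATP8 and ATP6 are carried on a shared mRNA, the call of ATP8 without ATP6 does not separate different mRNAs. The difference between called and uncalled mRNAs was itself not tested. ATP8 was called under all 16 alternative settings and ND4 and ND5 under 15 of 16 each, while ND6 and CYTB were called under 7 each. Leaving out any of the other 5 FAN1KO libraries left ATP8, ND4 and ND5, 3 of the 10, whereas without FAN1KO cisplatin replicate 3 there were 6.

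In wild-type kidneys the same injections were followed by small differences. All 10 mRNAs had a log2 fold change below 0 between cisplatin and saline (median −0.19, range −0.46 to −0.04, all genes tested 0.08). None of the 10 was called, where 0.0601% of all genes were, and none was lower without overlap, where 1.08% of all genes were. No unadjusted limma p of the 10 lay under 0.05. The 1 kidney of each group with Y-linked RNA went the other way, with 9 of the 10 higher after cisplatin, while among the kidneys without it all 10 were lower, with differences of −25.4 to −9.78%. ATP8 had the lowest fold change, from 2096, 2021 and 3053 TPM under saline to 2163, 1768 and 1305 TPM under cisplatin, and its groups overlapped.

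Under saline the genotypes were close for 9 of the 10 mRNAs, with log2 fold changes from −0.14 (COX3) to 0.11 (ATP8) and overlapping values. ND5 was the exception, with 5442, 6032 and 4987 TPM in wild-type and 7067, 6643 and 7219 TPM in FAN1KO kidneys. All 3 FAN1KO values were above all 3 wild-type values, so that 1 of the 10 was higher without overlap, where 4.62% of all genes were. Its log2 fold change of 0.35 ± 0.21 did not pass the test (adjusted p 0.792, limma), and 0 of the 10 were called in either direction, where 0.768% of all genes were. No unadjusted limma p of the 10 lay under 0.05. The lone wild-type saline kidney with Y-linked RNA, replicate 3, had the lowest TPM of its group for 8 of the mRNAs and the highest for ATP8.

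The genotype by treatment interaction asks whether cisplatin moved the mRNAs further in FAN1KO than in wild-type kidneys. It was below 0 for all 10 (median −0.51, range −0.80 to −0.34, all genes tested 0.28), and 0 of the 10 were called, where 6.24% of all genes were. ND5 (−0.78 ± 0.30, adjusted p 0.133, limma) and ND4 (−0.80 ± 0.35, adjusted p 0.186, limma) had unadjusted p values under 0.05. Without FAN1KO cisplatin replicate 3, and with the Y-linked covariate, ND5 was called, 1 of the 10. A larger response of FAN1KO kidneys was therefore not shown for these mRNAs at 3 mice per group, and the 95% interval for ND5 ran from −1.44 to −0.13.

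**Figure D3:**
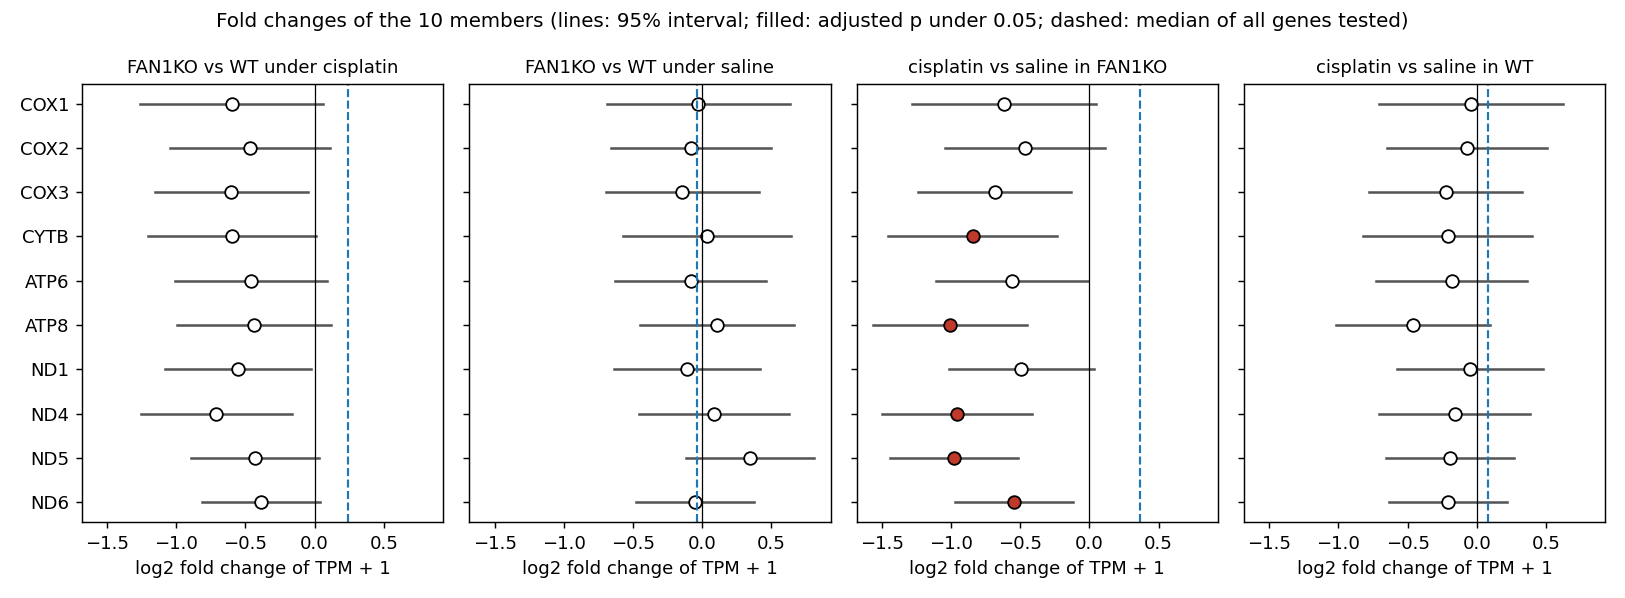
Log2 fold changes of TPM + 1 (horizontal axes) of the 10 mRNAs are plotted with 95% intervals (lines) for the 4 comparisons, with filled circles for adjusted p values under 0.05 and a dashed line at the median of all genes tested. Filled circles appear only for cisplatin against saline in FAN1KO kidneys (CYTB, ATP8, ND4, ND5 and ND6), and under cisplatin all 10 points lie left of 0 while the median of all genes is at 0.24.

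TPM are parts of a fixed total, so a lower share of these abundant mRNAs raises the values of all other genes. With each library scaled to the TPM outside the mitochondrial genome, the median log2 fold change of the 10 between FAN1KO and wild-type kidneys after cisplatin was −0.61 and that of all genes 0.16. With median-ratio scaling the corresponding values were −0.82 and −0.03. The 10 mRNAs stayed below 0 under both scalings, and no sign of any of the 10 changed in that comparison under any of the 16 alternatives.

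The 10 mRNAs varied together from kidney to kidney. Across the 12 libraries, which share the 4 groups, the Pearson correlation of log2 TPM between pairs of the 10 had a median of 0.93, with the highest for ND4 and CYTB (0.99) and the lowest for ATP8 and COX1 (0.62). Among 14957 nuclear genes tested, those most like the summed mRNAs over the 12 libraries included Gm5512 (0.955), Cltrn (0.954), a membrane protein of the proximal tubule that helps amino acid transporters reach the surface, Gatb (0.941), part of the enzyme that makes mitochondrial glutaminyl-tRNA, and Cyp2j11 (0.938), a cytochrome P450. Mean TPM of Cltrn was 2208 under saline and 1917 under cisplatin in wild-type kidneys, and 2077 and 1063 in FAN1KO kidneys.

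The make-up of the mitochondrial mRNA pool was similar in the cisplatin groups. As percent of the 13 mRNAs, which include ND2, ND3 and ND4L, the 10 differed between FAN1KO and wild-type cisplatin kidneys by −0.58 to 0.80 percentage points. COX1 made up 18.95 to 23.3% of the pool across the 12 libraries. ND4 alone, 1 of the 10, was separated under cisplatin, at 5.52% of the pool in FAN1KO and 6.10% in wild-type kidneys. Under saline ND5 alone of the 10 was separated between the genotypes, higher in FAN1KO kidneys. Outside the 10, ND2 (6.62% in FAN1KO and 5.79% in wild-type kidneys) and ND4L (2.51 and 2.11%) were also higher there without overlap. In wild-type kidneys COX2 alone was separated by treatment, at 10.95% under saline and 11.4% under cisplatin. Within FAN1KO kidneys the shift with cisplatin was wider. ND1 had a mean of 11.1% of the pool under saline and 12.8% under cisplatin, COX2 10.5 and 12.2% and ATP6 7.87 and 8.61%, while ND4 had 6.65 and 5.52% and ND5 3.46 and 2.83%. None of these 5 overlapped between the treatments. Outside the 10, ND2 (6.62% under saline and 5.12% under cisplatin) and ND4L (2.51 and 1.635%) were also lower under cisplatin without overlap. These shares were compared by overlap only and not tested, and they have no share over all genes to set beside the counts. Even separated groups of 3 give no less than 0.1 in an exact permutation test.

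**Figure D4:**
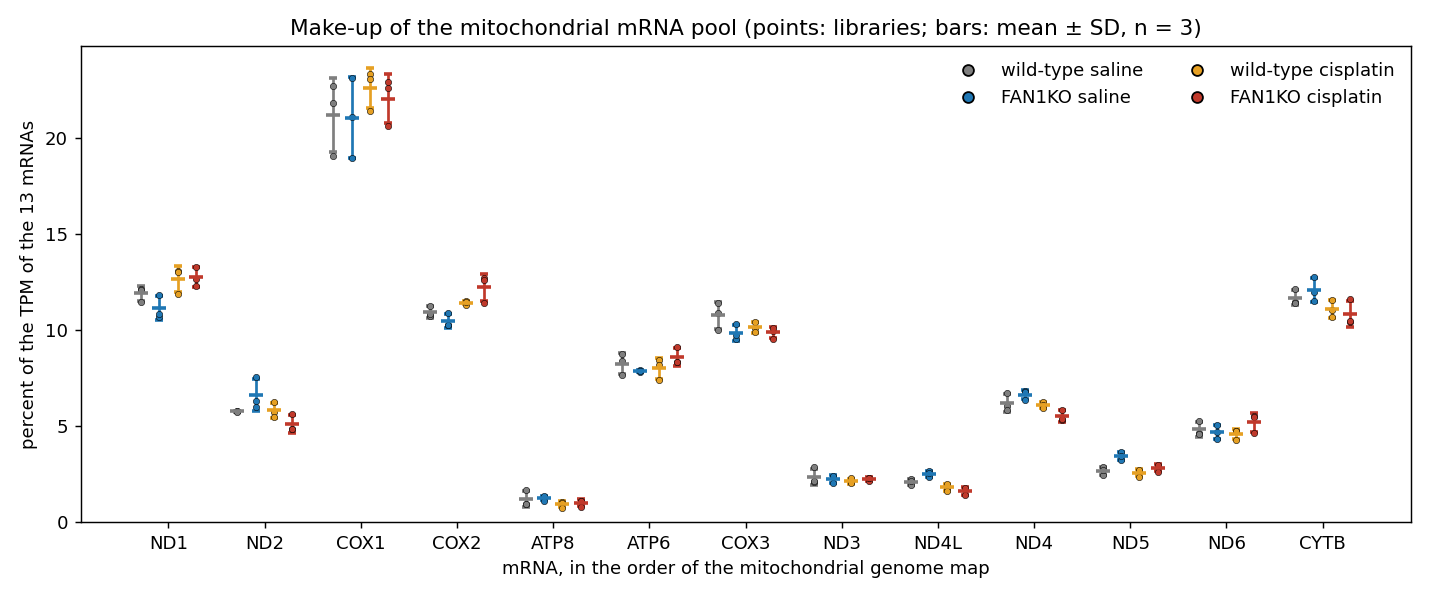
The percent of the TPM of the 13 mitochondrial mRNAs (vertical axis) taken by each mRNA is plotted in the order of the genome map (horizontal axis), with the libraries of the 4 groups as points and mean and SD as bars. COX1 is the largest part in every library, and ND5 stands higher in FAN1KO saline kidneys (3.46%) than in the other groups.

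ND6 and ND5 overlap at their ends on opposite strands and come from different primary transcripts. As the strand setting is not known, the ND6 values and the ratios below may include plus-strand reads. For each 100 TPM of ND5 there were 188, 159 and 193 TPM of ND6 in wild-type and 138, 133 and 137 TPM in FAN1KO kidneys given saline. After cisplatin there were 179, 158 and 200 TPM in wild-type and 191, 208 and 155.5 TPM in FAN1KO kidneys. The FAN1KO saline kidneys were below all other libraries. Against the 12 plus-strand mRNAs together, ND6 took 4.48 to 5.84 TPM per 100 in the 12 libraries and the groups overlapped. ATP8 per 100 TPM of ATP6 was 16.0 ± 1.49 in FAN1KO saline and 11.9 ± 2.60 in FAN1KO cisplatin kidneys (SD, n = 3), without overlap, although 43 bases of ATP8 also belong to ATP6.

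The mitochondrial rRNAs, which build the ribosomes that translate these mRNAs, overlapped between the genotypes under cisplatin, and under saline both lay higher in FAN1KO kidneys without overlap, as did 4.62% of all genes tested, but neither passed the test. mt-Rnr1 had 2669, 4444 and 4413 TPM in wild-type and 3573, 3608 and 4248 TPM in FAN1KO cisplatin kidneys, with overlap. Under saline it had 2703, 3387 and 3341 TPM in wild-type and 4879, 6425 and 7055 TPM in FAN1KO kidneys, without overlap (log2 fold change 0.95 ± 0.23, adjusted p 0.125, limma). The log2 fold change of mt-Rnr2 under saline was 0.49 ± 0.21 (adjusted p 0.543, limma). Both rRNAs fell with cisplatin in FAN1KO kidneys, where 4.90% of all genes tested fell. The falls from these higher saline values were 0.67 for mt-Rnr1 (adjusted p 0.0392, limma) and 0.61 for mt-Rnr2 (adjusted p 0.0381, limma) on the log2 scale. Per 100 TPM of the 13 mRNAs the rRNAs had 3.39 ± 0.66 TPM in wild-type and 5.61 ± 0.78 TPM in FAN1KO kidneys under saline (SD, n = 3), and 4.36 ± 1.38 and 5.84 ± 1.37 TPM under cisplatin. Whether libraries were made by poly(A) selection or rRNA removal is not given in the sources used here, so the level of the rRNAs against the mRNAs may depend on library making.

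The nuclear-encoded subunits of the same complexes had a median log2 fold change between the genotypes under cisplatin of −0.02, where the 10 mRNAs had −0.51. Of 70 tested from a list of 71, 8 fell and 1 rose in FAN1KO kidneys, where 4.37% of all genes tested fell and 19.6% rose. With only the 6 libraries of the comparison fitted, 3 of the 70 fell. Complex III had 3 of 8 lower, complex V 3 of 15, complex I 2 of 36 with 1 higher, and complex IV 0 of 11, where the 3 mitochondrial subunits had log2 fold changes of −0.60 (COX1), −0.47 (COX2) and −0.60 (COX3). Ndufs1 of complex I, an iron-sulfur subunit, fell from 153 ± 12.1 to 89.0 ± 2.83 TPM (SD, n = 3), a log2 fold change of −0.77 ± 0.09 with an adjusted p of 0.000525 (limma). Uqcrfs1, the Rieske iron-sulfur protein of complex III, fell by 0.67 (SE 0.10, adjusted p 0.00152, limma) and Atp5b, the catalytic subunit of the ATP synthase, by 0.46 (SE 0.11, adjusted p 0.0139, limma). Ndufa6 of complex I rose from 176 ± 15.5 to 223 ± 16.1 TPM (log2 fold change 0.34, adjusted p 0.0386, limma), a call lost under both scalings and in 12 of 16 alternatives.

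Ndufs1 varied far less among FAN1KO cisplatin kidneys than ND4 did, whose coefficient of variation was 29.9% in the same 3 libraries. Ndufs1, Uqcrfs1 and Uqcrc2, a core subunit of complex III, were called under all 16 alternatives, and Atp5b under 13 of 16. With cisplatin against saline in FAN1KO kidneys 11 of the 70 nuclear subunits fell and 1 rose, where 4.90% of all genes tested fell and 34.9% rose, and with median-ratio scaling 29 fell and 0 rose. Under saline, and in wild-type kidneys, 0 of the 70 were called. With median-ratio scaling, under which the median of all genes tested under cisplatin moved to −0.03, 13 of the 70 were lower and 0 higher between the genotypes and their median became −0.33.

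**Figure D5:**
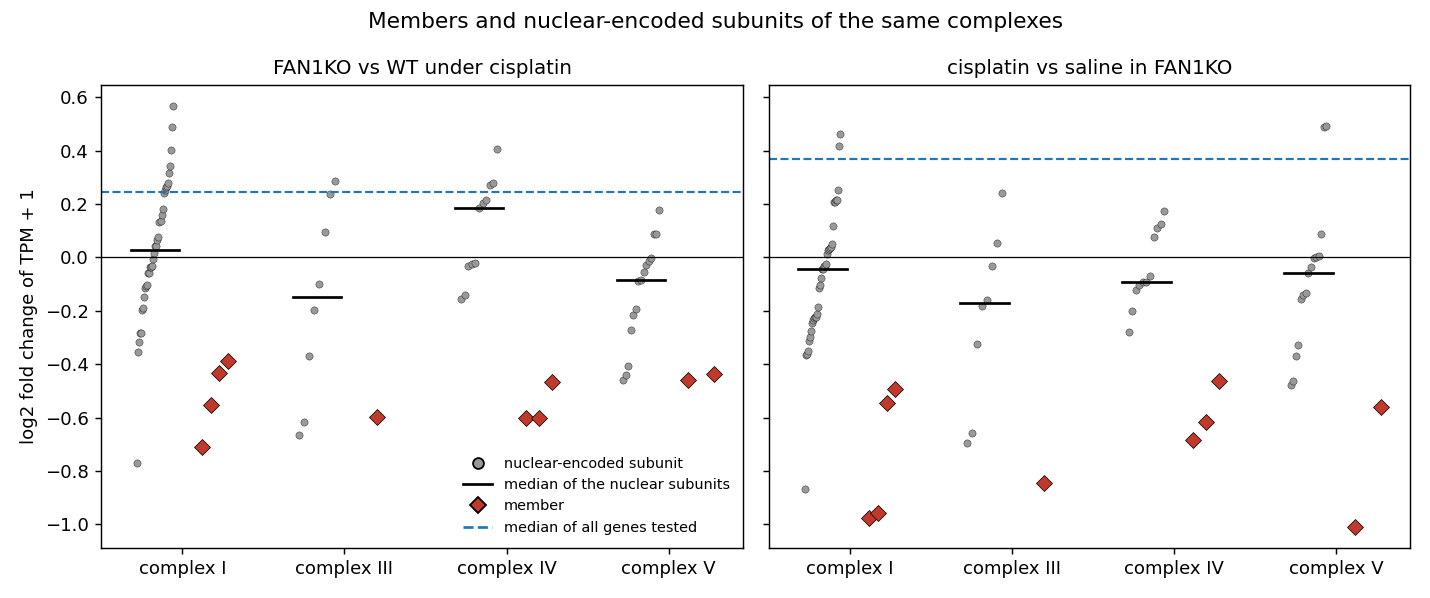
Log2 fold changes of TPM + 1 (vertical axis) of the 10 mRNAs (diamonds) and of the nuclear-encoded subunits (circles, with their median as a short line) are plotted by complex for the genotypes under cisplatin (left) and cisplatin against saline in FAN1KO kidneys (right), with all genes' median dashed. Under cisplatin every diamond lies below the median of the nuclear subunits of its complex, and in complex IV no nuclear subunit comes as low as the COX mRNAs.

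Of 38 nuclear machinery genes that transcribe, process, stabilise or copy the mitochondrial genome, 5 fell and 1 rose in FAN1KO kidneys relative to wild type under cisplatin, where 4.37% of all genes tested fell and 19.6% rose. Their median log2 fold change was −0.06, against 0.24 for all genes tested. With only the 6 libraries of the comparison fitted, 1 of the 38 fell. The RNA polymerase Polrmt was not called, at 22.6 ± 1.31 and 22.5 ± 1.46 TPM (adjusted p 0.996, limma). Tfam, which packages the genome and starts transcription, had 26.2 ± 1.84 TPM in wild-type and 21.2 ± 0.85 TPM in FAN1KO kidneys (adjusted p 0.0563, limma), and the elongation factor Tefm 21.2 ± 0.76 and 18.9 ± 1.01 TPM (adjusted p 0.324, limma). Tfb2m, which opens the promoter, fell by 0.38 (SE 0.11, adjusted p 0.0298, limma), a call kept under 10 of 16 alternatives.

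Lrpprc, which keeps mitochondrial mRNAs from decay, fell by 0.40 on the log2 scale (SE 0.10, adjusted p 0.0204, limma). Its call was kept under 12 of 16 alternatives. Slirp, the partner of Lrpprc, stood at 90.6 ± 6.02 and 106 ± 3.15 TPM and was not called (log2 fold change 0.23, adjusted p 0.147, limma). Grsf1, an RNA-binding protein of mitochondrial RNA granules, fell by 0.51 (adjusted p 0.00781, limma), a call kept under all 16 alternatives. Mgme1, a nuclease of mitochondrial DNA upkeep, fell by 0.63 (adjusted p 0.0316, limma), a call kept under 10 of 16. The exonuclease Rexo2 rose by 0.32 (adjusted p 0.0439, limma), a call that neither scaling kept. In FAN1KO kidneys 6 of the 38 machinery genes fell and 4 rose with cisplatin, where 4.90% of all genes tested fell and 34.9% rose. Under saline and in wild-type kidneys 0 of the 38 were called. With median-ratio scaling the counts between the genotypes under cisplatin became 12 lower and 0 higher, with a median of −0.34, and with cisplatin in FAN1KO kidneys 16 lower and 1 higher.

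Of 13 marker lists of kidney and other cell types, those of the proximal tubule, the injured tubule and red cells had the most calls. Of 10 proximal tubule markers 7 fell and none rose under cisplatin in FAN1KO relative to wild-type kidneys, and their summed level was 2537 to 4622 TPM in FAN1KO and 5707 to 8370 TPM in wild-type cisplatin kidneys. Of all genes tested 4.37% fell and 19.6% rose, and only 4 of the 10 marker genes fell with the replicate block or with no filter on low values. All 5 markers of injured tubule rose, from a sum of 33.8 to 149 TPM up to 785 to 1165 TPM, and 3 of the 5 rose with no filter. All 5 red cell markers fell, from 3050 to 7935 TPM down to 8.01 to 85.5 TPM. Of 6 collecting duct markers 2 rose, with sums of 431 to 826 TPM in wild-type and 1069 to 1686 TPM in FAN1KO kidneys, and of 4 distal convoluted tubule markers 2 fell, with sums of 688 to 1198 and 362 to 846 TPM. Of 5 macrophage markers 1 rose, with sums of 252 to 853 and 652 to 1416 TPM. A lymphocyte and a muscle marker also rose, with sums of at most 8.51 and 3.98 TPM, and 0 markers were called of the thick ascending limb, podocytes, endothelium and fibroblasts, while none of brown fat could be tested.

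The same lists moved with cisplatin in FAN1KO kidneys, where 5 of the 10 mRNAs fell. There 7 of 10 proximal tubule markers fell, from sums of 6840 to 9610 TPM under saline, as did all 5 red cell and 2 of 4 distal convoluted tubule markers, where 4.90% of all genes tested fell. All 5 injured tubule markers rose from sums of 7.50 to 36.1 TPM, 3 of 5 macrophage markers from 115 to 502 TPM and 2 of 6 collecting duct markers from 358 to 772 TPM, where 34.9% of all genes tested rose. A thick ascending limb and a muscle marker rose, a podocyte and an endothelial marker fell, and 0 were called of fibroblasts and lymphocytes. No marker was called under saline or in wild-type kidneys. In whole kidneys, fewer cells of a type and less RNA per cell cannot be told apart, and the part of these cell types in the lower mRNAs was not tested. For each TPM of the proximal tubule markers the 10 mRNAs had 34.3, 42.5 and 31.0 TPM in FAN1KO cisplatin kidneys and 22.1, 27.9 and 24.1 TPM in wild-type cisplatin kidneys, which was higher in FAN1KO kidneys without overlap. Leaving the globin genes out of the total changed the difference in share under cisplatin from −5.11 to −5.20 points.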

How the data were processed

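Expression in 12 whole-kidney libraries was deposited as TPM of 27179 genes in a single table, and the submitters' processing notes name mm10 and limma. The aligner, annotation, counting program and strand setting behind the TPM are not given in the sources used here. Columns left out numbered 0, and each library summed to 1000000. Groups and replicate numbers came from the labels, with 3 mice per group. Genes were named with RefSeq (GRCm38.p6), and sequences were taken from GENCODE transcripts. The 10 mRNAs and all gene lists were chosen with earlier results of these data known. The other genes named were, by rule, fixed machinery genes, the largest called changes in each list under cisplatin, and the 5 nuclear genes most like the summed mRNAs, of which 1 is not reported here. Uqcrc2 and the other genes named for holding under every alternative were chosen after their values were seen.

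Testing covered the 14972 genes that reached a TPM of 1 in 3 or more libraries, as log2(TPM + 1), which understates changes of low genes. The 4 groups of the 12 libraries were fitted together with limma (3.58.1, R 4.3.3) using a mean-variance trend and Benjamini–Hochberg adjustment (threshold 0.05). Steps were tested on simulated data. Whole reads were recovered from the TPM of all 15 mitochondrial rows to within 0.000162 reads. Nothing in the labels says that same-numbered mice were related. The limma p values set group differences against the spread between mice, pooled over the 4 groups and moderated across genes. Other steps used Python (3.11.15) with pandas (2.3.3), numpy (2.4.6), scipy (1.17.1) and, for figures, matplotlib (3.10.9). Alternatives covered the pseudocount (0.1), the filter, scaling, the trend, a Y-linked covariate, a replicate block, the 6 libraries of a comparison alone, leaving out each library, and, chosen after seeing the data, voom on recovered reads and the block with rescaling.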

Additional observations from a re-analysis of the deposited data

Results flagged for a closer look

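ND4L, the neighbour of ND4 on the same mRNA and a small subunit of complex I, was lower in every FAN1KO than in every wild-type kidney under cisplatin and higher in every one under saline. Its log2 fold change between FAN1KO and wild-type kidneys was −0.72 under cisplatin (adjusted p 0.0324, limma) and 0.237 under saline, where it did not pass the test (adjusted p 0.975, limma). The TPM was 3695, 3561 and 2874 in wild-type and 1622, 1820 and 2862 in FAN1KO cisplatin kidneys, and 4269, 4688 and 3945 in wild-type and 5100, 4771 and 5315 in FAN1KO saline kidneys, without overlap in either pair of groups. The difference between these effects, tested as the genotype by treatment interaction, was −0.96 ± 0.30 (SE), with an adjusted p of 0.0776 by limma, and it was called under 2 of 21 alternatives.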

How the results depend on the processing

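For FAN1KO against wild-type kidneys under cisplatin, 0 of the 10 mRNAs were called as reported, and 4 were with the Y-linked covariate, without the mean-variance trend, and with voom on recovered reads (chosen after seeing the data). Leaving out 1 library gave 0 to 4. For cisplatin against saline in FAN1KO kidneys, 5 were called as reported, 9 with the Y-linked covariate, with median-ratio scaling, without the trend and with voom, 3 with only the 6 libraries of the comparison, and 1 without the filter on low values. Leaving out 1 library gave 3 to 6. With the replicate number as a block 3 were called, as also with the block and scaling to TPM outside the mitochondrial rows (chosen after seeing the data). The block changed no other count of the 10. Deviations of same-numbered libraries from their group means correlated at 0.0179 on average over 18 pairs (−0.606 to 0.761), against 0.0151 for different numbers. The library with Y-linked RNA did not have the same number in every group. Same-numbered pairs thus mix libraries with and without it, so the averages cannot show whether the numbers paired the mice. The interaction had 1 call with the Y-linked covariate and 0 to 1 when 1 library was left out. Under saline and in wild-type kidneys the count was 0 throughout. Of the 70 nuclear subunits, 13 rather than 8 were lower under cisplatin with median-ratio scaling and 3 with only the 6 libraries. Of the 38 machinery genes, 5 were lower, but 12 with median-ratio scaling, 10 with the Y-linked covariate, 9 scaled to TPM outside the mitochondrial rows and 1 with only the 6 libraries. Of the 10 proximal tubule marker genes, 7 were lower, but 4 with no filter and 4 with the replicate block. Of the 5 injured tubule marker genes, 5 were higher, but 3 with no filter. With cisplatin in FAN1KO kidneys, median-ratio scaling gave 29 rather than 11 lower nuclear subunits and 16 rather than 6 lower machinery genes. The causes of these differences between settings were not tested. The share of total TPM differed by −6.46 to −3.64 points under cisplatin when 1 library was left out. No called mRNA changed sign in any alternative. Groups of 3 limit what the exact test can give to 0.1.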
